A study of Mus musculus with 16 samples.

Results

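miR-675 is a microRNA cut from the long noncoding RNA H19, and its hairpin gives 2 mature arms, miR-675-3p and miR-675-5p. Reads of each arm were taken from every row listed under its name, so both arms were followed out of 2274 miRNA names in 16 small RNA libraries of C2C12 cells, a mouse myoblast line. Control cells, labelled wild-type, came as populations 1 and 2. Cells with a triple knockout (tKO) of miR-206 and of both genes for miR-1a, miR-1a-1 together with miR-1a-2, came as clones C1 and C2. All cells are labelled PAX7 NEG and were sampled in growth medium (GM, 20% FBS) or after 3 days in 2% horse serum (DM3), in which C2C12 myoblasts form myotubes. Each of the 4 groups (control GM, tKO GM, control DM3, tKO DM3) held 4 libraries, namely 2 lines with replicates 1 and 2 each, and thus rests on 2 lines.

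H19 is an imprinted gene beside Igf2 that is transcribed from the maternal copy, abundant in the embryo and in developing muscle, and induced again when myoblasts differentiate. A microRNA hairpin is cut out of its host transcript by Drosha, and Dicer removes the loop to leave a 5p and a 3p strand. The seed, bases 2 to 8 of the strand, pairs with target messages. In myoblasts miR-675-3p is known to act on Smad transcription factors of the BMP pathway, and miR-675-5p on the replication factor Cdc6.

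The Mir675 hairpin lies at chr7:142577064-142577147 on the minus strand (GRCm38), inside H19 at chr7:142575529-142578143 (ENSMUSG00000000031.16). Of 7 H19 transcripts in GENCODE M21, 3 have an exon that holds the whole hairpin, and in 2 of these it is exon 1. Igf2 lies 73619 bases away on the same strand. The RefSeq hairpin is shown because the reads below are placed by its positions. The 84 bases are written 5′ to 3′ with the 5p arm (positions 15 to 36) and the 3p arm (positions 49 to 70) in capitals, followed by each annotated arm with its seed in capitals.
Mir675 hairpin: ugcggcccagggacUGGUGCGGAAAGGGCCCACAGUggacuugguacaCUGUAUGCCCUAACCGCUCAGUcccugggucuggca
miR-675-5p: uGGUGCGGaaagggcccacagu
miR-675-3p: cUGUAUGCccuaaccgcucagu
The 5p arm lies at chr7:142577112-142577133 and the 3p arm at chr7:142577078-142577099. Neither seed is shared with another of the 1679 mature mouse names in the RefSeq table.

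The libraries ran from 112792 to 6543570 listed reads. miR-206-3p, a target of the knockout, stood at 837 to 1466 CPM (reads scaled to the listed reads of the library) in control GM and at 0.808 to 15.5 CPM in tKO GM. In DM3 it stood at 19950 to 57442 CPM in control and at 0.960 to 70.9 CPM in tKO, so every library fitted its genotype label by miR-206-3p. miR-1a-3p stood at 28.5 to 165 CPM in control DM3 and at 0 to 7.36 CPM in tKO DM3. In GM, reads that matched its hairpin at the arm start came to 0 to 1.07 CPM in control and 0 to 0.555 CPM in tKO. That is too low to show its loss in GM. Among skeletal muscle markers, miR-133a-3p was at 2.63 to 14.9 CPM in control GM and at 1130 to 2190 CPM in control DM3. In tKO DM3 it was at 65.8 to 762 CPM. Summed markers of blood and of endothelium stayed at or below 16.3 and 27.9 CPM in every library, with miR-142a-5p at 0. The hepatocyte marker miR-122-5p reached 75.5 CPM in tKO GM, with 17.8 CPM or more in each library of that group and up to 8.96 CPM in tKO DM3, and the epithelial list reached 41.6 CPM. The neuronal list reached 940 to 2865 CPM with its defining miR-124-3p at 0, and the list of smooth muscle and fibroblasts, miR-143-3p and miR-145a-5p, 18574 to 60569 CPM. The library that stood farthest apart was clone C1 in DM3, replicate 1. It had the fewest reads, 18.9% of them under 18 nt, and 45.1% of its reads matched a microRNA hairpin at an arm start against 65.9% to 88.5% in the other libraries. Control population 1 in DM3, replicate 2, had 12.8% under 18 nt and the 65.9% hairpin match. Among GM libraries clone C1, replicate 2, stood apart, with 6.49% under 18 nt and 80.1% hairpin match against 1.88% to 2.95% and 86.4% to 88.5% in the other 7.

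The sequences that carry the counts are shown next, since the reads listed under the arms were not all of mature form. Of the reads listed under miR-675-5p, 88.8% (5697 of 6417) were a single 13 nt sequence with the change G2A against hairpin positions 11 to 23, counted from its 5′ end. The capital marks that base.
commonest sequence listed under miR-675-5p: gAactggtgcgga
hairpin at the same place: gGactggtgcgga
commonest miR-675-5p read without mismatch: tGGTGCGGaaagggcccacagtg
commonest miR-675-3p read: tGTATGCCctaaccgctcagt
In the last 2 lines the capitals mark bases 2 to 8. All 5697 reads of the 13 nt sequence carried 2 further bases that the hairpin does not hold, most often CC (3587 reads) or CT (1518 reads), which made them 15 nt reads. That is the lower end of the 15 to 50 nt inserts selected on the gel, per the labels. The 13 nt sequence, with or without either tail, was found in 0 of the 141767 GENCODE M21 transcripts. It was read in all 16 libraries.

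For this reason each arm was counted in 2 ways. "As listed" sums all rows under the name. "Hairpin match" keeps rows of at least 16 nt without mismatch that lie in the hairpin and begin within 3 bases of the annotated start of the arm; this rule was chosen after the rows were seen. For miR-675-3p the as-listed and hairpin-match totals were 1549 and 874 reads, and for miR-675-5p they were 6417 and 293 reads.

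miR-675-3p was low in myoblasts and higher after 3 days of differentiation in every line. As listed, control GM libraries held 1.95, 2.54, 0.527 and 3.97 CPM (population 1, replicates 1 and 2, then population 2), a mean of 2.25 ± 1.43 CPM (SD, n = 4). The 1.95 and 0.527 CPM are 1 read each, under the floor of 3 reads (5.86 and 1.58 CPM). The GM mean and the size of the increase thus rest partly on single reads. Control DM3 libraries held 80.7, 188, 123 and 110 CPM in the same order, a mean of 125 ± 45.2 CPM (SD, n = 4). The lowest DM3 library thus lay far above the highest GM library, and the groups did not overlap. The share of all names without overlap between media was not counted, here or in the comparisons below. The increase was 5.25 ± 0.85 on the log2 scale (SE; edgeR quasi-likelihood test, adjusted p = 0.00017 over 807 names). This rise was among the earlier results known when the arms and tests were chosen. Its p-values, here and below, thus describe it and are no independent support. The arm passed the filter on low counts only through the DM3 libraries. In that comparison 223 names, 27.6% of those tested, passed the adjusted threshold of 0.05, so a call as such was common. In these bulk libraries more cells with the microRNA and more of it per cell cannot be told apart.

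In tKO cells the 3p arm stood at 3.23 and 12.8 CPM in clone C1 in GM and at 1.11 and 0.334 CPM in clone C2, for replicates 1 and 2. These values are 4 and 25 reads in clone C1 and 2 reads each in clone C2, the latter under the floor of 3 reads. In DM3 clone C1 held 576 and 130 CPM and clone C2 held 113 and 76.4 CPM. The GM and DM3 libraries did not overlap here either. The increase was 5.43 ± 0.85 on the log2 scale (SE; edgeR, adjusted p = 0.00036), with 19.7% of 807 names called. Without clone C1 in DM3, replicate 1, whose 576 CPM was the highest value of miR-675-3p in the 16 libraries, the increase was 4.69 (edgeR, adjusted p = 0.00011), the smallest of the fits that left out 1 library. An exact permutation test of mean log2(CPM + 1), 4 libraries against 4, gave p = 0.0286 in each genotype, the smallest that 70 assignments can give, and 0.114 after adjustment over 8 tests of level.

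Counted by hairpin match, the 3p arm had a smaller range in DM3. Control libraries held 40.3, 52.9, 45.2 and 64.5 CPM, a mean of 50.7 ± 10.5 CPM (SD, n = 4), against 2.02 ± 1.09 CPM (SD, n = 4) in GM, from 1 to 20 reads per library. In tKO DM3 the libraries held 160 and 72.3 CPM in clone C1 and 76.0 and 53.3 CPM in clone C2. Their mean was 90.3 ± 47.3 CPM (SD, n = 4), against 3.47 ± 4.01 CPM in tKO GM, from 2 to 18 reads per library. The increase was 4.49 ± 0.67 in control and 4.63 ± 0.68 in tKO on the log2 scale (SE; edgeR, adjusted p = 6.5e-05 and 5.2e-05), and 4.24 in tKO without clone C1 in DM3, replicate 1. By this count 30.3% of 396 names were called in control and 27.3% in tKO. Every DM3 library lay above every GM library of its genotype by this count too.

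**Figure D1:**
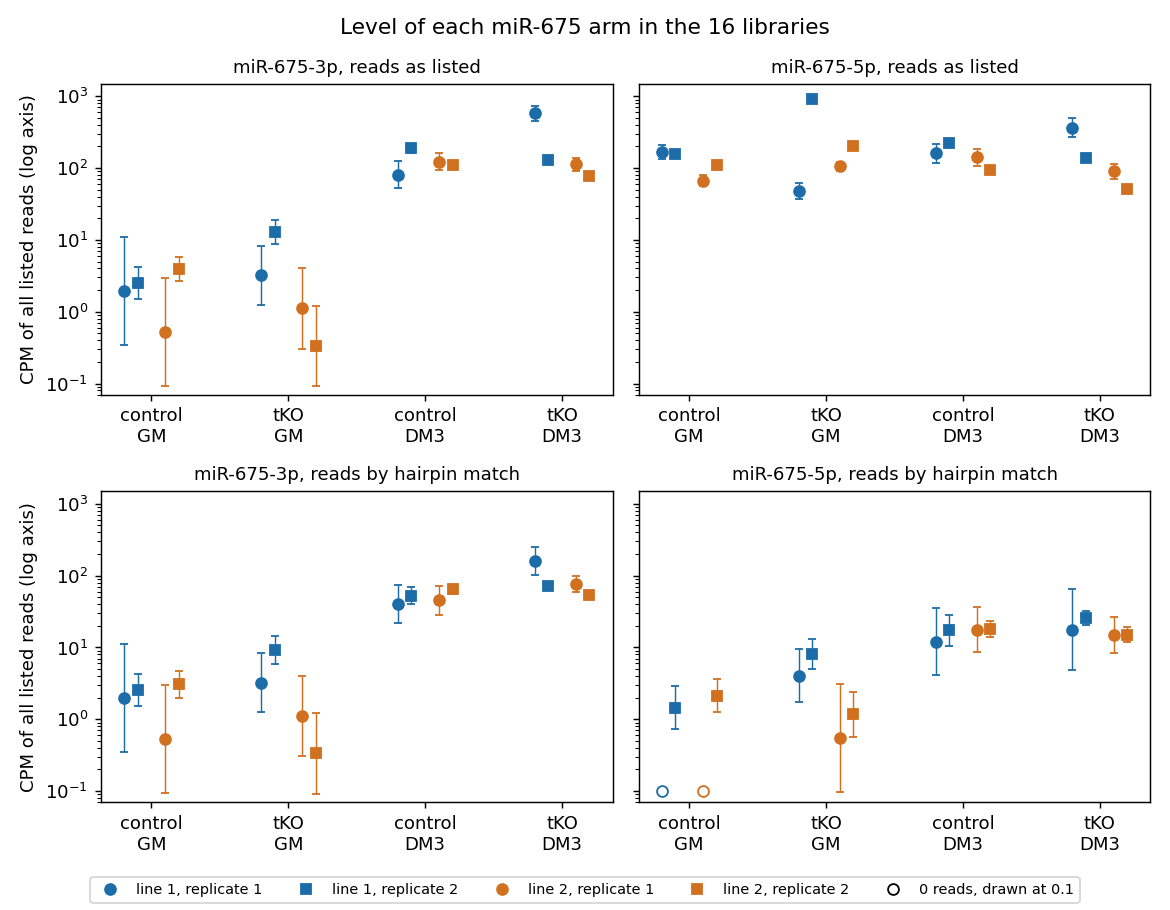
Level of each arm in CPM of all listed reads (log axis) in the 16 libraries, by group; points are single libraries with Wilson 95% intervals, blue for line 1 (control population 1 or clone C1), orange for line 2, and open circles are libraries with 0 reads, drawn at 0.1. The DM3 libraries lie above the GM libraries for miR-675-3p by either count, but for miR-675-5p only by hairpin match.

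For miR-675-5p the answer turned on the reads counted. As listed, control GM libraries held 168, 158, 66.4 and 111 CPM and control DM3 libraries 161, 225, 141 and 92.6 CPM, in the order of population 1 and 2 with replicates 1 and 2. These ranges overlapped, and the difference was -0.08 ± 0.61 on the log2 scale (SE; edgeR, adjusted p = 0.95). In tKO the libraries ran from 48.5 to 905 CPM in GM and from 51.3 to 364 CPM in DM3, with a difference of -1.20 ± 0.63 (SE; edgeR, adjusted p = 0.20). That value moved with single libraries: without clone C1 in GM, replicate 2, which holds 1773 of the 3250 tKO GM reads, it was -0.16 (edgeR, adjusted p = 0.88), and without clone C1 in DM3, replicate 1, it was -1.67 (0.051). With the replicates of a line summed it was called, at -2.13 (edgeR, adjusted p = 0.014), and with replicate number 1 alone it was 1.07 (0.35). The 13 nt sequence made up 80.0% to 97.1% of the as-listed 5p reads in GM libraries and 51.1% to 80.4% in DM3 libraries.

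By hairpin match the 5p arm was low in GM and rose in DM3. Control GM libraries held 0, 8, 0 and 14 reads, or 0, 1.45, 0 and 2.14 CPM; with 0 reads, levels of up to 5.86 and 1.58 CPM are allowed at those depths. Control DM3 libraries held 3, 16, 7 and 54 reads, or 12.1, 17.3, 17.6 and 18.05 CPM. The values of the groups did not overlap, and the increase was 3.60 ± 0.65 on the log2 scale (SE; edgeR, adjusted p = 0.00035, with 30.3% of 396 names called). The Wilson interval of 12.1 CPM, 4.11 to 35.6 CPM, reaches below the 5.86 CPM that 0 reads allow. In tKO, clone C1 went from 4.04 and 8.17 CPM to 17.7 and 25.9 CPM, and clone C2 from 0.555 and 1.17 CPM to 14.9 and 15.0 CPM. The values did not overlap in tKO, and the increase there was 2.38 ± 0.60 (SE; edgeR, adjusted p = 0.0056, with 27.3% of 396 names called). The 17.7 CPM rest on 2 reads, under the floor of 26.6 CPM, with a Wilson interval of 4.86 to 64.7 CPM. That interval overlaps the one of 8.17 CPM in GM (5.03 to 13.3 CPM), so the separation in tKO is not settled. Leaving out any 1 library, the increase stayed between 3.32 and 4.20 in control and between 1.98 and 3.39 in tKO, with adjusted p-values up to 0.031.

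Counting only rows without mismatch, or only rows of 18 to 25 nt, also gave a called increase of the 5p arm. The values were 3.89 and 3.91 in control and 2.52 and 2.88 in tKO on the log2 scale (edgeR, adjusted p between 0.00067 and 0.012). The 5p arm thus rose with differentiation by each of the 3 counts that leave out the 13 nt sequence. These counts (437 reads without mismatch, 334 of 18 to 25 nt, 293 by hairpin match) share reads and are not independent. By the count that holds the 13 nt sequence, no fit called a rise.

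Loss of miR-206 and miR-1a was not accompanied by a called change of either arm. As listed, tKO minus control was 0.44 ± 0.82 for the 3p arm and 1.03 ± 0.61 for the 5p arm in GM (SE; edgeR, adjusted p = 0.98 and 0.80, with 1.12% of 807 names called). The 3p arm, with 1 to 26 reads in each GM library, passed the filter on low counts only through the DM3 libraries and was not tested in a fit of the GM groups alone. Both GM directions rested on clone C1, replicate 2, without which the differences were -1.05 and -0.032 (edgeR, adjusted p = 0.995 for both). In DM3 the differences were 0.62 ± 0.69 and -0.09 ± 0.63 (SE; edgeR, adjusted p = 0.73 and 0.96, with 0.867% called). Without clone C1, replicate 1, the DM3 difference of the 3p arm was -0.14 ± 0.58 and that of the 5p arm -0.59 ± 0.56 (SE; edgeR, adjusted p = 0.89 and 0.50), so the direction of the former rested on that library, and 53 of 860 names were called in place of 7 of 807. By hairpin match the differences were 0.15 and -0.036 without that library. Hairpin-match counts gave 0.49 ± 0.74 and 1.28 ± 0.69 in GM and 0.63 ± 0.56 and 0.06 ± 0.56 in DM3 (SE; edgeR, adjusted p from 0.41 to 0.97), and -1.07 and 0.23 in GM without clone C1, replicate 2. By that count 4.55% of 396 names were called in GM and 5.56% in DM3. The GM libraries then held 1 to 20 reads of the 3p arm and 0 to 16 of the 5p arm. Both arms were tested there in a fit that held the DM3 libraries, so the GM differences rest on few reads and decide nothing. The standard errors are wide, so these misses do not show that the genotypes had equal levels.

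The rise with differentiation was not shown to differ between genotypes. The interaction of genotype and medium was 0.18 ± 1.11 for the 3p arm and -1.12 ± 0.88 for the 5p arm as listed (SE; edgeR, adjusted p = 0.99 and 0.94). Without clone C1 in DM3, replicate 1, it was -0.54 for the 3p arm and -1.55 for the 5p arm, and without clone C1 in GM, replicate 2, it was 1.63 and -0.094 (edgeR, adjusted p from 0.34 to 0.99). By hairpin match it was 0.14 ± 0.98 and -1.22 ± 0.88 (SE; edgeR, adjusted p = 0.99 and 0.87), and it was -0.29 and -1.28 without the former library and 1.63 and -0.24 without the latter. edgeR called 0% of the 807 as-listed names, of which 37 had an unadjusted p under 0.05, and DESeq2 called 0; by hairpin match 0.253% of names were called.

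The tKO clones were also compared with each other. As listed, in each medium both clone C2 libraries held less 3p arm than both clone C1 libraries: 1.11 and 0.334 against 3.23 and 12.8 CPM in GM, 113 and 76.4 against 576 and 130 CPM in DM3. In GM the clone C2 values are 2 reads each, under the floor of 3 reads, and 3.23 CPM is 4 reads. The Wilson intervals of 1.11 CPM (0.304 to 4.05) and 3.23 CPM (1.26 to 8.31) overlap, so the order in GM is not settled. As listed, clone C2 minus clone C1 was -2.48 ± 0.66 on the log2 scale (SE; edgeR, adjusted p = 0.078), which missed the threshold; 1.36% of 807 names passed it. It was -1.82 without clone C1 in DM3, replicate 1 (adjusted p = 0.22), and -2.01 without clone C1 in GM, replicate 2 (0.45). By hairpin match the difference was -2.20 ± 0.54 (SE; edgeR, adjusted p = 0.028), with 3.54% of 396 names called. The clones overlapped by that count in DM3, where clone C2 held 76.0 and 53.3 CPM and clone C1 160 and 72.3 CPM. The call was lost without clone C1 in DM3, replicate 1 (-1.85, adjusted p = 0.065), without clone C2 in DM3, replicate 1 (-2.34, 0.052), and without replicate 2 of clone C1 or of clone C2 in GM (-1.77 and -1.82, 0.18 and 0.16). By hairpin match the 5p arm differed by -1.68 ± 0.52 (SE; edgeR, adjusted p = 0.076). In DM3 clone C2 held 14.9 and 15.0 CPM of it and clone C1 17.7 and 25.9 CPM, where 17.7 CPM is 2 reads, under the floor of 3 reads (26.6 CPM) of that library. As listed, the 5p arm differed by -1.32 ± 0.59 (SE; edgeR, adjusted p = 0.28). Without clone C1 in GM, replicate 2, that value was 0.057 (adjusted p = 0.98), and without clone C1 in DM3, replicate 1, it was -0.90 (0.63). A difference between clones cannot be told apart from a difference between their cultures.

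Between control populations 2 and 1 the 3p arm differed by 0.13 ± 0.60 and the 5p arm by -0.59 ± 0.58 as listed (SE; edgeR, adjusted p = 0.96 and 0.83). edgeR called 0% of names by either count, with 32 of 807 as-listed and 37 of 396 hairpin-match names at an unadjusted p under 0.05, and DESeq2 called 0 as listed.

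The share of the 3p arm among all miR-675 reads depended on the count. In libraries with at least 10 reads it was higher in DM3 than in GM by both counts. As listed, it was 1.74% ± 1.18 in control GM and 2.21% ± 2.74 in tKO GM, against 45.0% ± 8.70 in control DM3 and 56.2% ± 5.81 in tKO DM3 (SD, n = 4 each). GM and DM3 libraries did not overlap, and an exact permutation test gave p = 0.0286 in each genotype, 0.0571 after adjustment over 4 comparisons. In DM3, tKO minus control was 11.2 percentage points (exact permutation p = 0.0571, adjusted 0.0762). By hairpin match, of the 3 GM libraries with at least 10 reads, population 1 and 2 had 63.6% and 58.8% and clone C1 had 52.9%, all replicate 2. Their exact 95% intervals, from 35.1% to 82.8% in all, each held equal shares of the arms, and the pooled tKO GM reads were 26 from the 3p and 29 from the 5p arm. In DM3 the share was 75.6% ± 2.66 in control and 81.3% ± 7.08 in tKO (SD, n = 4), and 78.4% ± 4.99 (SD, n = 3) in tKO without clone C1, replicate 1. All 8 DM3 libraries thus lay above the 3 GM libraries, but 2 control GM libraries against 4 could not reach a p under 0.0667 in the exact permutation test.

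**Figure D2:**
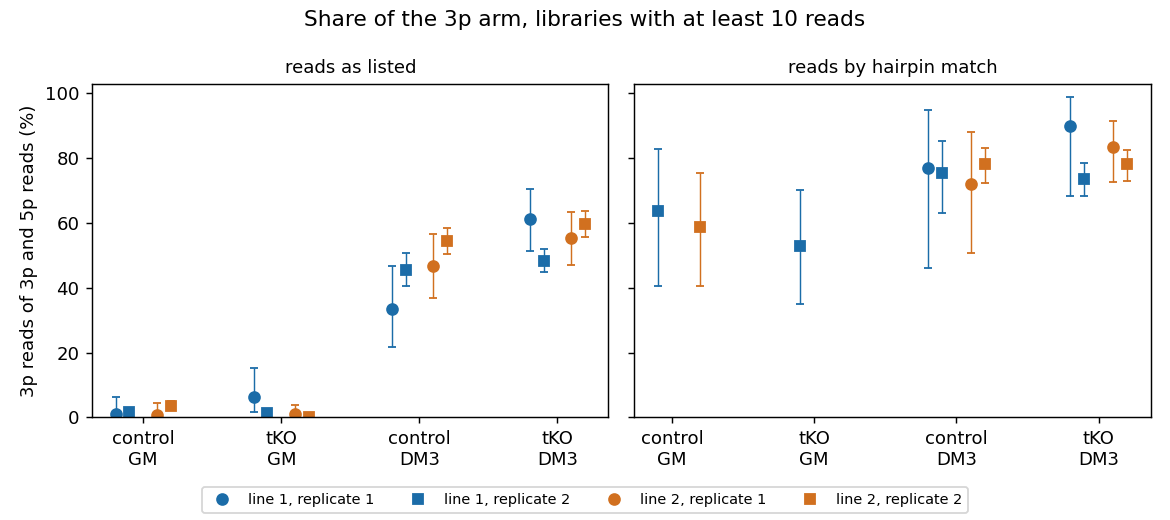
Share of 3p reads among 3p and 5p reads per library in percent, with exact 95% intervals, for libraries with at least 10 reads of both arms; as listed on the left, hairpin match on the right. As listed the GM libraries lie below 10%, and by hairpin match the 3 GM libraries that could be shown lie between 52.9% and 63.6%.

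The mature 3p strand in these cells began 1 base later than annotated. Starts and tails were read from 857 reads without mismatch at the 3p start, fewer than the 874 of the hairpin-match count. Of the 857, 778 (90.8%, exact 95% interval 88.6% to 92.6%) began at hairpin position 50, and 33 (3.85%) at the annotated position 49. By medium it was 55 of 62 reads (88.7%) in GM and 723 of 795 (90.9%) in DM3, and by genotype in DM3 it was 89.2% in control and 91.8% in tKO. With the later start, bases 2 to 8 become GUAUGCC in place of UGUAUGC. No other mature name in the RefSeq table has this seed. The 5p strand kept the annotated start in 289 of 292 reads (99.0%), where the hairpin-match count held 293.

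The commonest 3p read, 21 nt and printed above, ended at the annotated position 70 and was read 592 times. A 20 nt form without the last base was read 125 times, and 80.0% of these reads carried a non-templated base, C in 81 reads. The commonest 5p read was 23 nt, 1 base longer than annotated, with 187 reads, of which 43.9% carried a non-templated tail, T in 65 reads. At the mature starts, tailed reads made up 17.2% of 3p reads and 35.7% of 5p reads in DM3 (exact 95% intervals 14.7% to 20.0% and 29.6% to 42.1%). In GM tailed 3p reads were 16 of 36 in control (44.4%, 27.9% to 61.9%) and 3 of 26 in tKO (11.5%, 2.45% to 30.2%), and tailed 5p reads were 24 of 51 (47.1%, 32.9% to 61.5%).

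**Figure D3:**
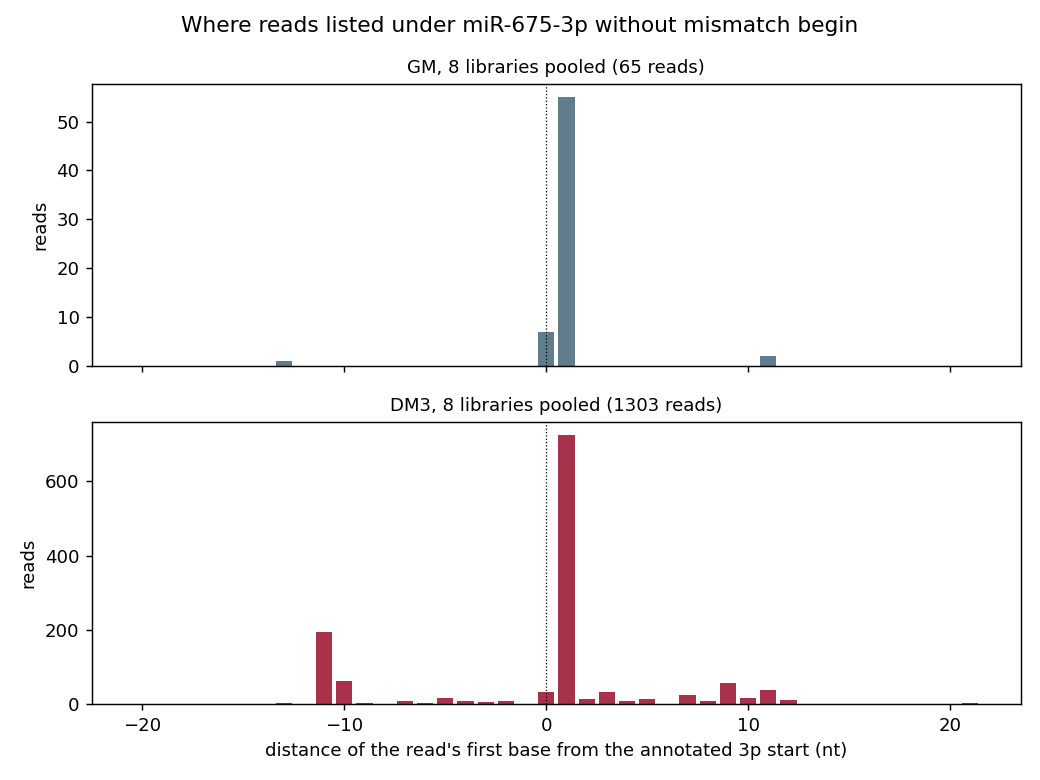
Reads listed under miR-675-3p without mismatch by the distance of their first base from the annotated 3p start in nt, within 25 nt of it; GM libraries pooled above, DM3 libraries pooled below, each with its own scale. The main bar stands at 1 base after the annotated start in both media, and DM3 has further bars 11 and 10 bases before it and from 7 to 11 bases after it.

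In DM3 the name miR-675-3p also covered reads from other places in the hairpin. At the 3p start lay 905 of 1474 reads (61.4%) in DM3 and 71 of 75 (94.7%) in GM. A further 333 DM3 reads (22.6%) began in the loop, and no GM read did. The commonest loop start was position 38, directly after position 37, the last base of the commonest 5p read. Another 173 DM3 reads (11.7%) began inside the 3p arm, against 2 in GM. Reads over 25 nt numbered 204 in DM3 (13.8%) and 0 of 75 in GM. The commonest of these long reads is shown with the 3p arm in capitals.
49 nt read listed under miR-675-3p: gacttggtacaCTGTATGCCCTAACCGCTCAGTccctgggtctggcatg
It runs from the loop through the whole 3p arm to 2 bases beyond the annotated hairpin, was read 24 times, and came from 5 libraries, all in DM3. In all, 62 reads listed under miR-675-3p ended past the hairpin.

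The share of such other forms varied between DM3 libraries, and the share at the 3p start was lowest in the 2 libraries with the lowest hairpin match. In population 1, replicate 2, 28.2% of 174 reads of miR-675-3p lay at the 3p start, and 65.9% of all reads of that library matched a hairpin. In clone C1, replicate 1, the values were 27.7% of 65 reads and 45.1%, and in clone C2, replicate 2, they were 77.2% of 347 reads and 86.6%. Population 2, replicate 1, had 40.8% of 49 reads at the 3p start with 80.6% hairpin match, and population 1, replicate 1, had 55.0% of 20 reads with 76.9%, so these values ran the other way. The remaining 3 DM3 libraries had 63.9% to 75.9% with 82.7% to 83.4%. What part the state of the library has in these forms was not tested. Between genotypes in DM3 the share at the 3p start was 47.0% ± 15.7 in control and 61.5% ± 23.2 in tKO (SD, n = 4; exact permutation p = 0.314, adjusted 0.52 over 7 tests of read forms). Without clone C1, replicate 1, the tKO share was 72.8% ± 6.56 (SD, n = 3; exact permutation p = 0.0571, not adjusted), an alternative added after the values were seen.

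**Figure D4:**
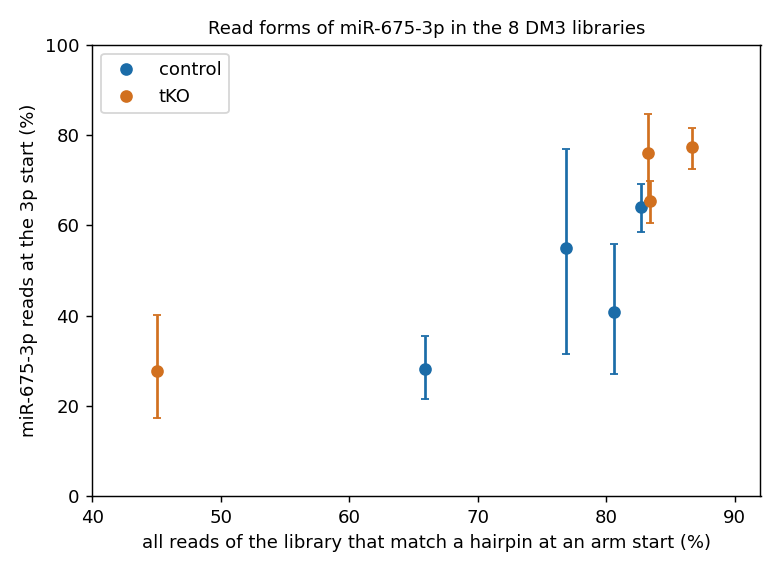
Share of miR-675-3p reads at the 3p start in percent, with exact 95% intervals, against the share of all reads in the same library that match a hairpin at an arm start, for the 8 DM3 libraries; blue control, orange tKO. The libraries with the lowest hairpin match, 45.1% and 65.9%, also have the fewest 3p reads at the 3p start, 27.7% and 28.2%.

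One base of the 3p strand was often read as another. In 878 reads of 18 to 25 nt that began at position 50, 64 (7.29%, exact 95% interval 5.66% to 9.21%) carried A4G, counted from the 5′ end of the read; this is base 5 of the annotated strand and lies in its seed. The changed form is shown with the base in capitals.
miR-675-3p read with A4G: tgtGtgccctaaccgctcagt
At each of the 20 other positions mismatches came to 0% to 0.569% of reads. The stretch holds 3 further A bases, which together were read as G in 5 reads. The change was found in 8 of 15 libraries with such reads, among them all 4 lines: in DM3 in 16 of 258 reads in control (6.20%, 3.59% to 9.88%) and in 41 of 556 in tKO (7.37%, 5.34% to 9.87%). In GM it was found in 7 of 64 reads (10.9%, 4.51% to 21.2%). A difference between groups was not tested. The intervals cover counting error only, since the reads carry no molecular identifiers.

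**Figure D5:**
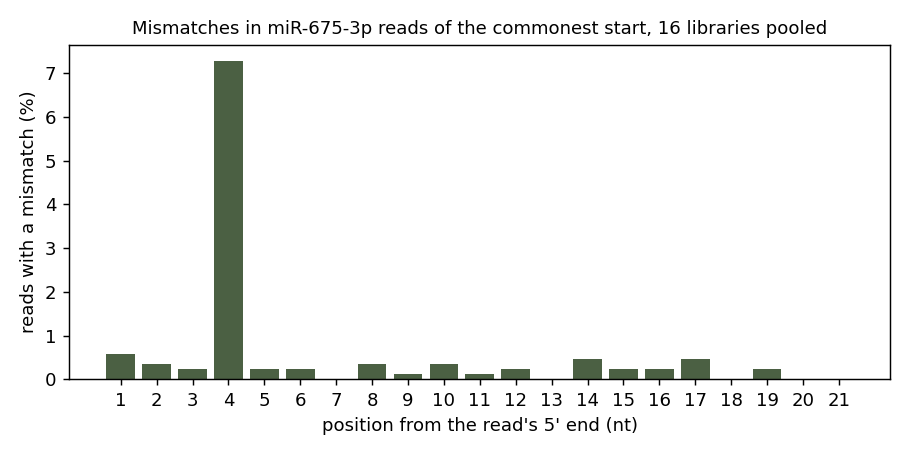
Reads with a mismatch in percent at each position from the 5′ end, over 878 reads of miR-675-3p with the commonest start, 16 libraries pooled. Position 4 stands at 7.29%, and no other position exceeds 0.569%.

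The names whose levels followed each arm most closely also depended on the count. As listed, over 16 libraries and 554 names with a mean of at least 10 CPM, the names most like miR-675-3p were miR-7672-5p (Pearson r = 0.96), miR-6538 (0.94), miR-135a-1-3p (0.94), miR-7044-5p (0.94) and miR-6364-3p (0.93). Of their reads 0% matched a hairpin, except 6.43% for miR-6538. The 2 arms of miR-675 had r = -0.06 as listed and 0.94 by hairpin match. By hairpin match the names nearest the 3p arm, besides the 5p arm, were miR-378a-5p (0.96), miR-185-3p (0.93), miR-378a-3p (0.92) and miR-6538 (0.89). miR-378a is known as a microRNA of skeletal and cardiac muscle. The names nearest the 5p arm were miR-6396-5p (0.91), miR-592-5p (0.89), miR-216a-3p (0.88), miR-383-5p (0.87) and miR-6237-3p (0.84) as listed. Of their reads, too, 0% matched a hairpin, except 0.431% for miR-383-5p. By hairpin match the names nearest the 5p arm were, after the 3p arm, miR-378a-5p (0.89), miR-344-3p (0.86), miR-1981-5p (0.85) and miR-185-3p (0.84). These correlations describe libraries that share lines, media and depth.

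Other microRNAs of imprinted loci, from a list set beside miR-675, are given next. miR-483-3p lies in an intron of Igf2, next to H19, and averaged 0.801 ± 0.899 CPM in control GM and 12.8 ± 7.60 CPM in control DM3 (SD, n = 4). In tKO it averaged 0.477 ± 0.428 CPM in GM and 6.31 ± 4.18 CPM in DM3 (SD, n = 4). As listed, it rose by 3.74 ± 0.78 in control and by 3.02 ± 0.85 in tKO on the log2 scale (SE; edgeR, adjusted p = 0.0013 and 0.017). These values rest on few reads per group, 9 in control GM, 40 in control DM3, 5 in tKO GM and 30 in tKO DM3. miR-483-5p was too low to be tested. Of 4 tested names from the Mest and Gnas loci, 0 were called between media in either genotype. They were miR-296-3p, miR-296-5p, miR-298-3p and miR-298-5p, all from the Gnas locus. Of 13 tested names from the Dlk1-Dio3 locus, 3 rose and 0 fell with differentiation in control, miR-380-3p by 4.97, miR-668-3p by 2.18 and miR-434-3p by 2.16 (edgeR, adjusted p = 0.00043, 0.0013 and 0.024). In tKO 0 of 13 were called. Over all 807 names 27.6% were called in control and 19.7% in tKO. The median change of the 13 Dlk1-Dio3 names was 0.88 in control and 0.44 in tKO, against 0.02 and 0.01 over all 807 names.

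Between clones, 3 of the 4 tested microRNAs of the imprinted Gnas locus were called lower in clone C2. The remaining name, miR-298-3p, was not called (-1.09 ± 0.66, SE, edgeR, adjusted p = 0.41). miR-675-3p was lower by -2.48 in the same count but missed the threshold (edgeR, adjusted p = 0.078). Whether these names change together was not tested. miR-296-3p, miR-296-5p and miR-298-5p differed by -3.26, -3.02 and -3.16 on the log2 scale, lower in clone C2 (edgeR, adjusted p = 0.0024, 0.0024 and 0.00032), 3 of the 4 tested names, where 1.36% of all 807 were called. miR-341-5p of the Dlk1-Dio3 locus differed by -2.76 (edgeR, adjusted p = 0.040), 1 of 13. miR-483-3p differed by 0.31 ± 1.03 (SE; edgeR, adjusted p = 0.90). The median over all names in this comparison was -0.25.

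Of 9 muscle microRNAs, 4 rose with differentiation in control and 2 in tKO, and 0 fell, beside the same 27.6% and 19.7% of all names called. The names called in control only, miR-206-3p and miR-1a-3p, are those deleted in tKO. miR-133a-3p rose by 6.99 in control and 6.29 in tKO and miR-133b-3p by 6.66 and 6.52 (edgeR, adjusted p up to 3.2e-05). In control miR-206-3p rose by 4.58 and miR-1a-3p by 3.92 (edgeR, adjusted p = 0.00026 and 0.00011), beside 5.25 for miR-675-3p in the same count. The median of the 9 names was 0.75 in control and 0.71 in tKO.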

How the data were processed

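Small RNA libraries of 16 C2C12 samples were analysed. The submitters' processing notes name the build mm10, cutadapt 1.15 and STAR 2.5.4; the deposited tables carry the name of unitas, a small RNA annotation tool, and per the file headers give reads per listed sequence and name, in expected counts without normalization. Reads that match several sequences are split in the deposited expected counts, so sums were rounded to whole counts. Of 2510 names, 236 were merged, which left 2274; neither arm of miR-675 was changed by this. CPM is relative to all listed reads.

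edgeR 4.0.16 (robust quasi-likelihood test, TMM scaling, filterByExpr with a minimum count of 10) tested 807 names in 4 groups, and for lines in groups split by line; p-values were adjusted over all names by Benjamini-Hochberg. DESeq2 1.42.0 and other scalings, filters and counts were alternatives. The script was tested on simulated data. Single values were compared by two-sided exact permutation tests. Intervals are 95% (Wilson for CPM, exact for shares), and a count of 0 allows up to 3 reads.

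Sequences come from RefSeq (GRCm38.p6) and the deposited tables; transcripts and exons from GENCODE M21, also GRCm38. Both arms matched the RefSeq table by name. No H19 promoter was used here. The members, lists and tests were chosen with earlier results of these data known, and the rise of miR-675-3p was among those results. Named beside the arms were at most 4 called names per list and comparison, by size of change, and the 5 names most correlated with each arm; counting by hairpin match, with its leave-one-out fits and correlations, was chosen with the rows in view. The labels number the replicates but do not say what separates them, so p-values measure the spread between these libraries. Reads without mismatch cannot tell a hairpin read from a read of the same H19 stretch.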

Additional observations from a re-analysis of the deposited data

Results flagged for a closer look

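Of 24 groups of 4 libraries checked for a value far from the other 3, 2 held one; chance gives about 1 in 20. The as-listed level of miR-675-3p in clone C1 in DM3, replicate 1, was 576 CPM, and the next value of the group was 130 CPM. That library has 112792 reads, 65 of them under this name, and 18 of the 65 matched the hairpin at the 3p start. The hairpin-match level of miR-675-5p in control population 1 in DM3, replicate 1, was 12.1 CPM, and the next value was 17.3 CPM; it rests on 3 reads.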

How the results depend on the processing

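The rise of miR-675-3p in DM3 kept its direction and its call in every edgeR and DESeq2 setting run, 32 in each genotype, and its size was 4.997 to 5.69 in control and 4.69 to 6.89 in tKO on the log2 scale as listed when 1 library at a time was left out, and 4.25 to 4.82 and 4.09 to 6.16 by hairpin match. The results below changed direction or call in at least 1 setting, and the cause was not tested.

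Whether replicate numbers pair the libraries is not settled. Deviations from the group means correlated by 0.10 on average for the same number and by -0.0944 for different numbers (48 pairs each). The lowest values were -0.456 and -0.634. These deviations are centred within groups, so the averages mirror each other and cannot decide it. In every line and medium replicate 1 had fewer listed reads than replicate 2. With the replicate block the permutation test cannot go below 0.0556, so the 3p rise missed the threshold at 5.34 in control and 5.49 in tKO (hairpin match 4.17 and 4.66), as did the arm share at 43.2 and 54.0 percentage points. With hairpin match and the block in edgeR, the 5p rise was 3.71 in control and 2.36 in tKO (2.42 as a level in tKO). The clone difference was then -2.18 for 3p (adjusted p = 0.018) and -1.64 for 5p (adjusted p = 0.032), the population difference for 5p 0.27 and the genotype difference for 5p in DM3 0.023 (as a level 0.15).

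The direction of miR-675-5p between media turned with the reads counted, with the scaling and with the libraries kept. In control it was 0.30 by total-count scaling, 3.89 without mismatch, 3.91 for 18 to 25 nt and 3.60 by hairpin match (as a level 3.99 without mismatch, 3.36 by hairpin match and -0.078 with TMM). In tKO it was 2.52, 2.88 and 2.38 (as a level 2.64 and 2.42), 1.07 with replicate number 1 alone, and past the threshold downwards at -2.55 with number 2 alone and -2.13 with replicates of a line summed. The clone difference of miR-675-3p passed the threshold with DESeq2 (-2.61, adjusted p = 0.0054), without mismatch (-2.70), for 18 to 25 nt (-2.50) and by hairpin match (-2.20). As listed it passed in 1 of 8 fits without a library, without clone C1 in DM3, replicate 2 (-2.81, adjusted p = 0.011).

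Directions of results that were not called turned as follows. Genotype in GM was -0.46 for 5p with replicate number 1 alone. Genotype in DM3 for 3p was -0.71 with number 2 alone and -0.46 with lines summed; for 5p it was 0.088 with the 10 CPM filter, 0.0024 with DESeq2, 0.15 with only the groups compared, 0.12 without mismatch (level 0.21), 0.20 for 18 to 25 nt, 0.022 with names as listed, 0.76 with number 1 alone and 0.062 by hairpin match (level 0.15). The interaction for 3p was -0.038 for 18 to 25 nt, -0.91 with number 2 alone and -0.68 with lines summed, and for 5p 1.22 with number 1 alone. The population difference for 3p was -0.064 by total counts and -0.092 without mismatch, and for 5p 0.0051 for 18 to 25 nt and 0.22 by hairpin match.

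The arm share of tKO against control in GM was -22.1 points without mismatch, -2.59 for 18 to 25 nt and -8.29 by hairpin match. DM3 against GM gave 26.2, 17.4 and 14.4 points in control by these counts, and 21.6 and 28.4 points in tKO by the last 2; too few GM libraries had 10 reads for a p under 0.05 in these. With each distinct sequence counted once, 76.9% of GM and 26.7% of DM3 sequences of miR-675-3p lay at the 3p start, and 77.1% and 26.6% of those of miR-675-5p were under 16 nt.

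Leaving out 1 library, with both counts of reads, gave these lowest and highest values. Genotype in GM ran from -1.07 to 1.03 for 3p and from -0.032 to 1.85 for 5p, and in DM3 from -0.14 to 0.92 and from -0.59 to 0.24. Medium for 5p ran from -0.39 to 4.20 in control and from -1.67 to 3.39 in tKO. The interaction for 3p ran from -0.54 to 1.63. The clone difference ran from -2.81 to -1.77 for 3p and from -2.13 to 0.057 for 5p, and the population difference from -0.91 to 0.67 and from -2.12 to 2.46. Levels ran in GM from -0.39 to 0.74 for 3p and from -0.21 to 1.19 for 5p, in DM3 from -0.20 to 0.76 and from -0.76 to 0.17, and for 5p between media in tKO from -1.12 to 0.28. The arm share in GM ran from -0.88 to 1.149 points.

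The number of names called ran over all settings from 85 to 250 for medium in control, 74 to 210 in tKO, 2 to 22 for genotype in GM, 1 to 74 in DM3, 0 to 3 for the interaction and 0 to 90 for the clones. Scaling by total counts moved the median of all names between media to 0.39 in control and 0.24 in tKO, and 153 names rose and 62 fell in control (128 and 95 by TMM), 110 and 43 in tKO (92 and 67). Depth limits the GM levels: 2 of 4 control GM libraries held 1 read of miR-675-3p each.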
